A study of Neurospora crassa with 8 samples.

Results

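The long lincRNA genes of *Neurospora crassa* described here are the members of the deposited lincRNA list that span 1000 bp or more in the NC10 genome (end minus start plus 1). They are 237 of the 1060 listed genes (22.4%), and the rest of the list holds 823 genes. LincRNAs are long intergenic noncoding RNAs, i.e. RNA polymerase II transcripts from the space between protein-coding genes. Some lincRNAs are known to act on the expression of nearby genes, while for most of them no function is known. *Neurospora* is a filamentous fungus with a compact genome, in which neighboring genes lie close together. Polysomes are mRNAs loaded with several ribosomes, and the reads that a transcript gives in the polysome fraction are used to ask whether it is being translated.

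The authors detected the listed transcription units in pooled RNA-seq data of several strains and in RNA polymerase II ChIP-seq data, which were not used here. The polysome values of the list come from 1 sample of the *wt* strain 74-OR23-1VA (FGSC 2489). Mycelia in liquid culture were held in light for 1 day at 25 °C, then kept dark for 22 h, with a harvest at intervals of 2 h and cycloheximide, which arrests ribosomes, added beforehand. All harvests were pooled, so that each gene has 1 polysome value and no replicate check. The genes next to the long lincRNA genes were followed in 4 strand-specific libraries of the same strain, which was kept dark for 24 h and then given 0, 30, 60 or 120 min of light, with 1 library per time point. The series also holds 3 libraries from 48 h of constant light (*wt*, Δ*wc1* and Δ*wc2*), which were not used here.

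The long members covered 360.2 kb, which was 49.2% of the bases in the list. Their median length was 1351 bp, with quartiles of 1151 and 1801 bp. Most of them lay close to the lower limit, as 145 measured 1001 to 1451 bp, 50 measured 1501 to 1951 bp and 42 measured 2001 bp or more. All NC10 coordinates fall on a grid of 50 bp bins, which the authors used to detect transcription units. Hence the shortest members had 20 bins (1001 bp) and the longest genes of the rest had 19 bins (951 bp). The 22 genes of 1001 bp had a median polysome value of 0.88 (0.28 to 1.39), and the 27 genes of 951 bp had a median of 0.72 (0.12 to 1.39).

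The longest lincRNA gene was located at chr5:3255200-3258650 (3451 bp, all positions in NC10 unless stated otherwise). Its polysome value was low, at 0.37. The next was chr5:1965600-1968800 with 3201 bp and a value of 0.98. It lies between *rad16*, named after a DNA repair gene of yeast, and NCU03651. The third, chr2:2659550-2662700, was 3151 bp long and had the highest polysome value of the 5 longest genes, 1.25. It is flanked by *alf1*, whose yeast namesake helps to fold tubulin, and NCU01706. The last 2, chr1:7284150-7287200 with a value of 1.00 and chr5:463150-466200 with 0.55, were 3051 bp long. The polysome values of the 5 longest genes thus ranged from 0.37 to 1.25, with no order by length.

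To interpret the polysome values, their scale was examined first. The list gives natural log (ln) values with 2 decimals. A value that is the mean over a gene's bins of ln(reads + 1) can take only certain values in a short gene. For genes of 2 bins, 18 of the 146 possible 2-decimal values (12.3%) are of this kind, and 85 of 85 listed genes (100%) had one of them. For genes of 3 bins it was 55 of 55, where 41.8% of the possible values qualify, and for genes of 4 bins 39 of 39, where 61.6% qualify. Exceptions occurred at 5 bins, where 49 of 51 qualified, and at 6 bins, where 65 of 66 did. The listed values were thus read as mean ln(reads + 1) per 50 bp bin, with whole numbers of reads. Counts that were scaled and then rounded to whole numbers would give such values too, so this check cannot tell them from unscaled reads. Unscaled reads would differ from the authors' description, by which the counts were normalized by total count and unit length. All numbers of polysome reads given below assume unscaled reads, which was not tested. On this scale the smallest value above 0 is 0.35 for a gene of 101 bp and 0.035 for a gene of 1001 bp.

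No long lincRNA gene was listed at polysome value 0, whereas 76 of the 823 other genes (9.23%) were. A count of 0 among 237 genes has an exact 95% upper limit of 1.54%. This limit treats the genes as independent draws, and it is not an error over samples. Of the 76 genes at 0, 64 had at most 6 bins. Since a long gene is above 0 as soon as 1 of its 20 or more bins holds a read, the shares below 0.1 were also compared. They were 1.27% of the long members (3 genes) and 10.9% of the rest (90 genes). In the genes of up to 6 bins the same 64 genes (21.6%) were below 0.1 and at 0, because no value between them is possible there.

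The long lincRNA genes had a median polysome value of 0.80 (quartiles 0.56 and 1.04, range 0.05 to 1.43, SD over genes 0.33). The rest of the list had a median of 0.64 (quartiles 0.31 and 0.99, range 0 to 1.45, SD over genes 0.41). The difference between the medians was 0.16 on the ln scale, and the distributions overlapped over almost their whole range. Among the long members 149 of 237 (62.9%) were above the median of the list, and among the rest 45.6%. The difference decreased to 0.10 when genes at 0 were left out of both sets, and to 0.09 when only the genes without any overlap with an annotated gene were compared. It was larger, 0.275, against the 296 genes of up to 6 bins, whose median was 0.525. As exp(value) - 1, i.e. the geometric mean of (reads + 1) per bin minus 1, the medians correspond to 1.23 for the long members and 0.896 for the rest. The values were not set against the total RNA level of each gene. A higher value therefore does not by itself mean more ribosomes per transcript, and this was not tested. No test was made over genes, which are not replicates of a condition.

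The long members and the rest differed more at the lower end than at the upper end. Values below 0.3 were found in 7.17% of the long members (17 genes) and in 23.5% of the rest. Values above 1.2 were found in 14.3% of the long members (34 genes) and in 9.96% of the rest. The upper end is fixed by the way in which the list was made, since the authors at first left out transcripts that exceeded the median polysome read count of coding genes. Most of these had no predicted coding potential, and the authors later added them to their final set of lincRNAs. The list used here is without them. How this cut bears on the differences by length was not tested. Among the length classes, the median increased from 0.525 at up to 6 bins, through 0.65 at 351 to 601 bp and 0.76 at 651 to 951 bp, to 0.80 at 1001 to 1451 bp. It was 0.83 at 1501 to 1951 bp and 0.72 at 2001 bp and over. Accordingly, the rank correlation (Spearman's rho) of length and polysome value was 0.23 across the 823 other genes and -0.05 across the 237 long ones. All genes share 1 pooled library, and the correlations are across genes.

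**Figure D1:**
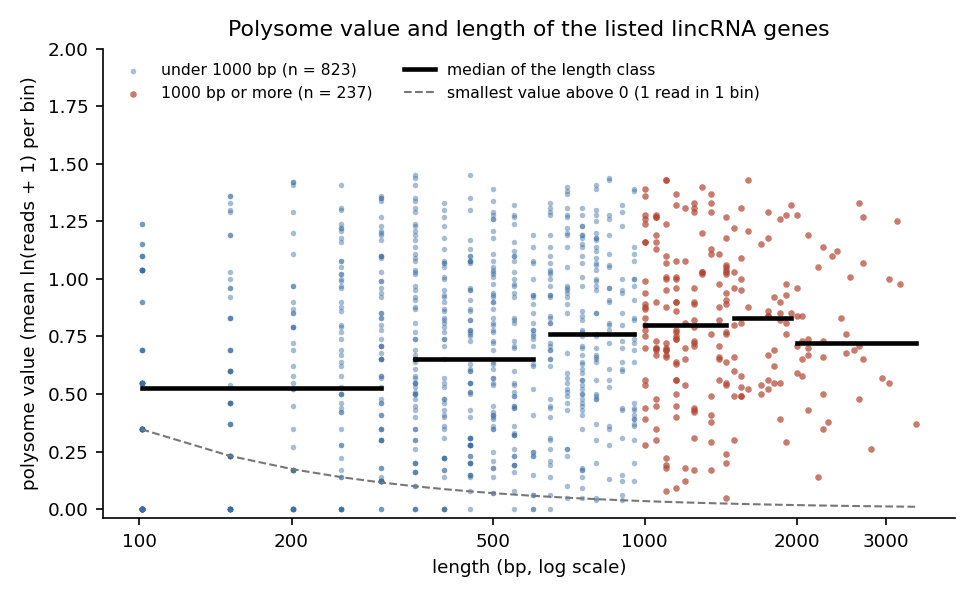
Polysome value (mean ln(reads + 1) per 50 bp bin) of each of the 1060 listed lincRNA genes against its length in bp (log scale), with black bars at the median of each length class and a dashed line at the smallest value above 0. The class medians go from 0.525 to 0.76 below 1000 bp and lie between 0.72 and 0.83 above it, and no gene of 1000 bp or more is at 0.

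The highest polysome values among the long lincRNA genes were 1.43 in 3 genes, 1.40 in 1 gene and 1.39 in 1 gene. The longest of them, chr7:1186200-1187800 (1601 bp, 1.43), lies between *camk-2*, which encodes a calcium/calmodulin-dependent protein kinase, and NCU02282. The second, chr2:2461000-2462100 (1101 bp, 1.43), lies between NCU01782 and NCU01781. The third, chr4:5179600-5180700 (1101 bp, 1.43), starts 673 bp from *cre-1*, which encodes the repressor of carbon catabolism. The other 2 were chr3:645250-646550 (1301 bp, 1.40), next to NCU05723, and chr3:1898450-1899450 (1001 bp, 1.39), between NCU06203 and NCU06204. These 5 genes thus came from 4 chromosomes and, at 1001 to 1601 bp, were all shorter than the 5 longest members.

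The lowest value of the long members was 0.05 in chr5:2644450-2645900 (1451 bp). With 29 bins, this value corresponds to only 2 or 3 reads in the whole gene, if the values are of unscaled reads. The next, chr7:1183550-1184650 (1101 bp, 0.08), corresponds to 3 to 5 reads, and chr5:328050-329200 (1151 bp, 0.09) to 3 to 7 reads. Then followed chr1:8339400-8340600 (1201 bp, 0.12) and chr2:3163650-3165850 (2201 bp, 0.14). The second lowest member and 1 of the 3 members with the highest value of 1.43 are close neighbors on chromosome 7. They are separated by a shorter listed gene and form a run of 3 listed genes within 4251 bp.

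**Figure D2:**
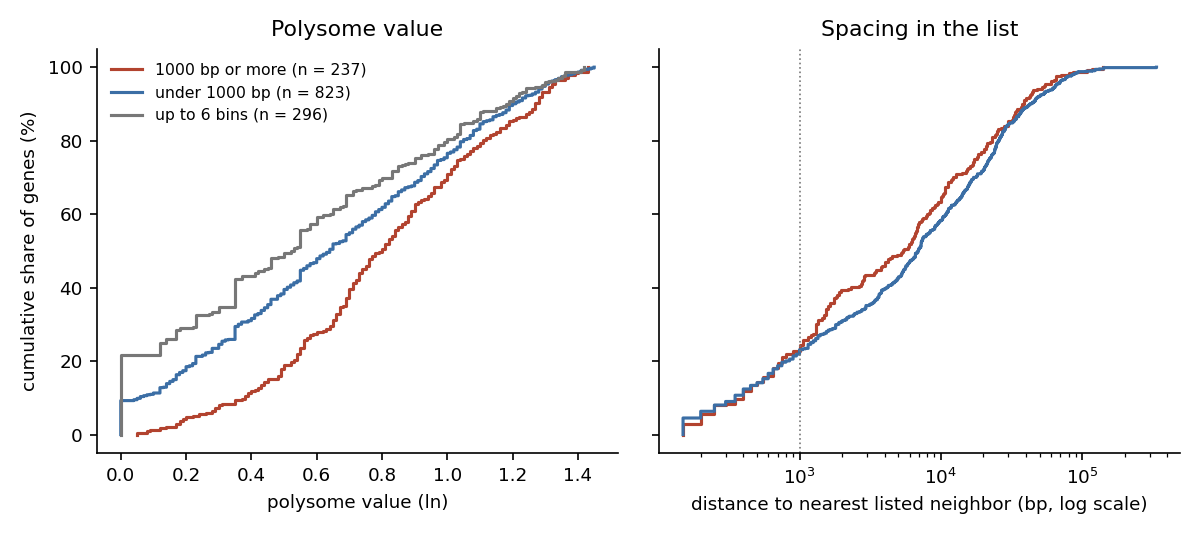
Left, cumulative share of genes (%) by polysome value (ln) for lincRNA genes of 1000 bp or more, under 1000 bp and up to 6 bins. Right, cumulative share of genes (%) by the distance to the nearest listed neighbor (bp, log scale), with a dotted line at 1000 bp. On the left the long genes start above 0 at 0.05 and the curves meet near 1.4, and on the right the curves are close together up to 1000 bp.

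The long lincRNA genes were found on all 7 chromosomes. Chromosome 1 held 65 of them, chromosome 2 held 24, chromosome 3 held 32 and chromosome 4 held 21. Chromosome 5 held 55, chromosome 6 held 27 and chromosome 7 held 13. Their share of the listed genes was highest on chromosome 5, with 55 of 220 (25.0%, exact 95% interval 19.4 to 31.3%), and lowest on chromosome 7, with 13 of 78 (16.7%, 9.18 to 26.8%). Both intervals include the 22.4% of the whole list. Relative to the span of the annotated genes, the densities differed more, from 8.55 long lincRNA genes per Mb on chromosome 5 to 3.53 on chromosome 4 and 3.07 on chromosome 7. The listed genes as a whole followed a similar order, with 34.2 per Mb on chromosome 5, 18.8 on chromosome 4 and 18.4 on chromosome 7.

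**Figure D3:**
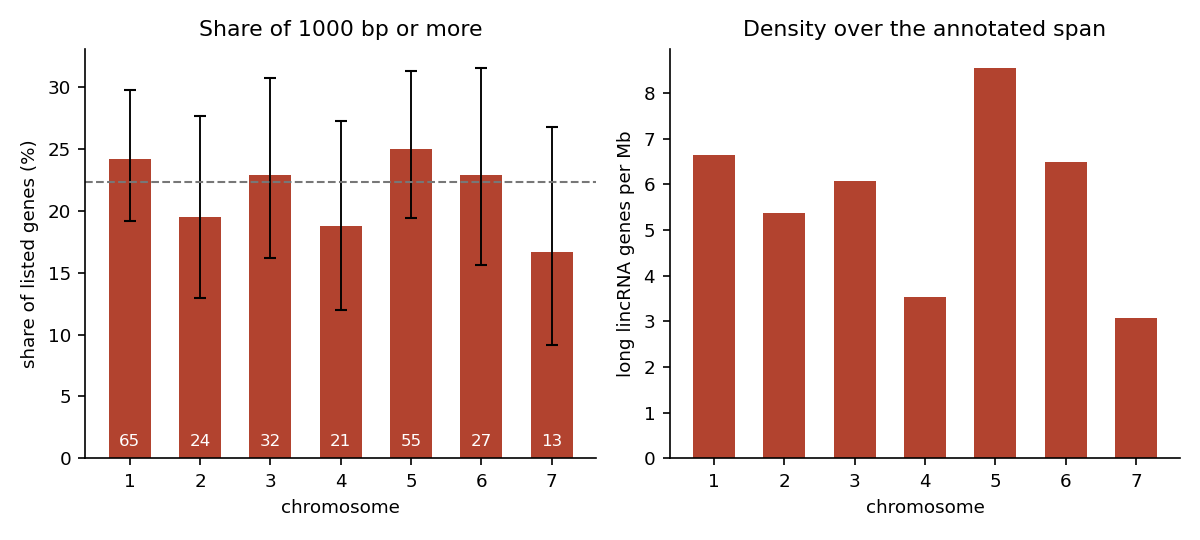
Left, share of the listed lincRNA genes on each chromosome that are 1000 bp or more (%), with exact 95% binomial intervals, the number of long genes in white and a dashed line at the 22.4% of the whole list. Right, long lincRNA genes per Mb of annotated span. The shares lie between 16.7% and 25.0%, and the densities between 3.07 and 8.55 per Mb.

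The median polysome value of the long members exceeded that of the rest on each of the 7 chromosomes. The difference was smallest on chromosome 2, with medians of 0.77 and 0.75, and on chromosome 4, with 0.72 and 0.69. It was largest on chromosome 7, with 0.82 in the 13 long members and 0.50 in the rest. The long members of chromosome 6 had a median of 0.88 and none was below 0.43. On the other 6 chromosomes the lowest long member had a value between 0.05 and 0.18.

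Next, the spacing within the list was examined, measured from the end of a gene to the start of the next. The nearest listed neighbor of a long lincRNA gene was at a median distance of 5350 bp (quartiles 1050 and 17200 bp, range 150 bp to 139900 bp). For the rest of the list the median was 6900 bp (quartiles 1225 and 22100 bp). By length class, the median was lowest at 1001 to 1451 bp, with 4500 bp. It was 6400 bp at 1501 to 1951 bp and 6525 bp at 2001 bp and over, both close to the rest. Below the limit it was 5650 bp at 651 to 951 bp, 7250 bp at 351 to 601 bp and 7000 bp at up to 6 bins. The shorter median of the long genes thus came from the class of 1001 to 1451 bp. A neighbor within 1 kb was present for 54 long genes (22.8%) and for 21.9% of the rest, and within 500 bp for 32 long genes (13.5%) and 13.4% of the rest. The sets differed in the range from 1 to 2 kb, which held the nearest neighbor of 39 long genes (16.5%) and of 72 other genes (8.75%). Consequently, 39.2% of the long genes and 30.6% of the rest had a neighbor within 2 kb. For 58 long genes (24.5%) the nearest neighbor was itself long, as it was for 23.0% of the rest. The spacing varied between chromosomes. The median distance of the long genes was shorter than that of the rest on 5 chromosomes, most of all on chromosome 5 with 1600 and 6050 bp. It was longer on chromosome 2, with 10600 and 6550 bp, and on chromosome 6, with 7050 and 4200 bp.

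Of the 1053 pairs of listed genes that follow each other on a chromosome, 54 consisted of 2 long genes. Their median distance was 8200 bp, compared to 16825 bp for the 364 pairs with 1 long gene and 21700 bp for the 635 pairs with none. The closest pairs of long genes were 150 bp apart. One was chr1:705400-707200 with chr1:707350-708400, whose polysome values of 0.69 and 0.67 were nearly the same. The other was chr5:3344250-3345300 with chr5:3345450-3346550, whose values were 0.48 and 1.10. At a distance of 250 bp followed chr1:960300-962150 (1.26) with chr1:962400-963750 (0.38), and chr5:4290450-4291650 (0.65) with chr5:4291900-4293150 (0.96). The median difference of the polysome values was 0.345 in the 10 pairs of long genes under 1 kb apart and 0.315 in the more distant ones. Close pairs were therefore not more alike by this measure.

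When genes less than 1 kb apart were joined into runs, 43 of 110 runs included a long gene and 10 included 2 or more. The runs held 234 genes, 54 of them long, and 22.4% of the whole list was long. The run with most long genes was on chromosome 3, where chr3:645250-652500 held 4 listed genes, 3 of them long, with polysome values from 0.54 to 1.40. At the other extreme, the most isolated long gene was chr3:4703350-4705800, 139900 bp from its nearest listed neighbor, with a value of 0.83. It was followed by chr5:626200-627600 (117000 bp, 0.71) and chr6:2438250-2439400 (107300 bp, 1.32). The longest stretch between consecutive long genes was 1108.5 kb, from 1187800 to 2296300 on chromosome 7. The rank correlation of polysome value and distance to the nearest listed neighbor was -0.04 across the 237 long genes (Spearman's rho, across genes of 1 library).

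The list gives each gene in the NC10 and in the NC12 assembly. None of the 237 long genes changed in length. On chromosomes 1 to 5 every long gene had the same position in both assemblies. Positions differed for 18 long genes (7.59%) and for 10.6% of the rest, and these 18 were the 13 long genes of chromosome 7 and 5 of the 27 on chromosome 6.

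On chromosome 7 the NC12 start and the NC10 end of each listed gene added up to 4255304, as for a chromosome that is reverse complemented as a whole. Therefore a long gene moved the less, the closer it was to the middle. The smallest move was 338.746 kb, for chr7:2296300-2297750, and the largest was 3406.746 kb, for chr7:3830500-3831550. Of these 13 genes, 5 moved to higher and 8 to lower positions. The long gene chr7:1123900-1125800 (1901 bp, polysome value 0.98) moved by 2005.604 kb to chr7:3129504-3131404 in NC12, where it lies 236 bp from *frq*, the gene of the central component of the circadian clock. This gene was chosen for mention after its values were seen.

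On chromosome 6, 27 consecutive listed genes were reversed, with a sum of 4635250, and the other 91 had the same position. The 5 long genes among them lay between chr6:2132650-2134150, which moved 368.45 kb up, and chr6:2585400-2586400, which moved 536.55 kb down. The long gene chr6:1742550-1744100 (1551 bp) was the last listed gene before the reversed stretch. It was the only long gene whose spacing differed between the assemblies, since its next listed gene was 121350 bp away in NC10 and 164750 bp away in NC12. Its nearest neighbor, at 7350 bp on the other side, was not affected, and no listed gene changed its nearest distance. The first long gene after the stretch was chr6:3176400-3178600.

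To see how the long genes are placed among annotated genes, the NC12 positions were compared with the RefSeq annotation of NC12, which gives the span of each gene without strand or exons. The positions matter here, since 3 of the 18 relocated long genes overlapped an annotated gene by their NC12 positions, but 13 of 18 would do so if the NC10 positions were used. In total, 37 long genes (15.6%) and 16.2% of the rest overlapped a RefSeq gene. The kind of gene differed. An ncRNA gene was overlapped by 27 long members (11.4%, exact 95% interval 7.64 to 16.1%) and by 24 of the rest (2.92%). A protein-coding gene was overlapped by 12 long members (5.06%) and by 111 of the rest (13.5%), and 2 long members overlapped both kinds.

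By length, an overlap with an ncRNA gene was found in 13 of 145 genes (8.97%) of 1001 to 1451 bp, in 5 of 50 (10.0%) of 1501 to 1951 bp and in 9 of 42 (21.4%) of 2001 bp or more. A longer gene has more bases that can overlap. By bases, 6.31% of the sequence of the long members and 2.23% of that of the rest lay in ncRNA genes. The difference was also present when at least 50% of the lincRNA gene had to be covered, with 14 long members (5.91%) and 17 of the rest (2.07%). Of the 176 annotated ncRNA genes, 27 (15.3%) were overlapped by a long member.

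The longest lincRNA gene shared 903 of its 3451 bp (26.2%) with the ncRNA gene NCU14074. The fit was closest for chr6:492050-493050 (1001 bp), which lay wholly within NCU14164. Its neighbor at 500 bp distance, chr6:489700-491550 (1851 bp), overlapped NCU14163 by 73.9% of its length. The weakest overlap was 93 bp (8.45%), between chr6:532950-534050 and NCU14165. The 27 long members with an ncRNA gene had a median polysome value of 0.91 (range 0.37 to 1.33), and the 210 without had 0.77 (0.05 to 1.43). In the rest of the list, the medians were 0.72 in the 24 genes with an ncRNA gene and 0.64 in the 799 without. Among the 79 members with the lowest polysome values 3 overlapped an ncRNA gene, among the 79 in the middle 13 did, and among the 79 with the highest 11 did.

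**Figure D4:**
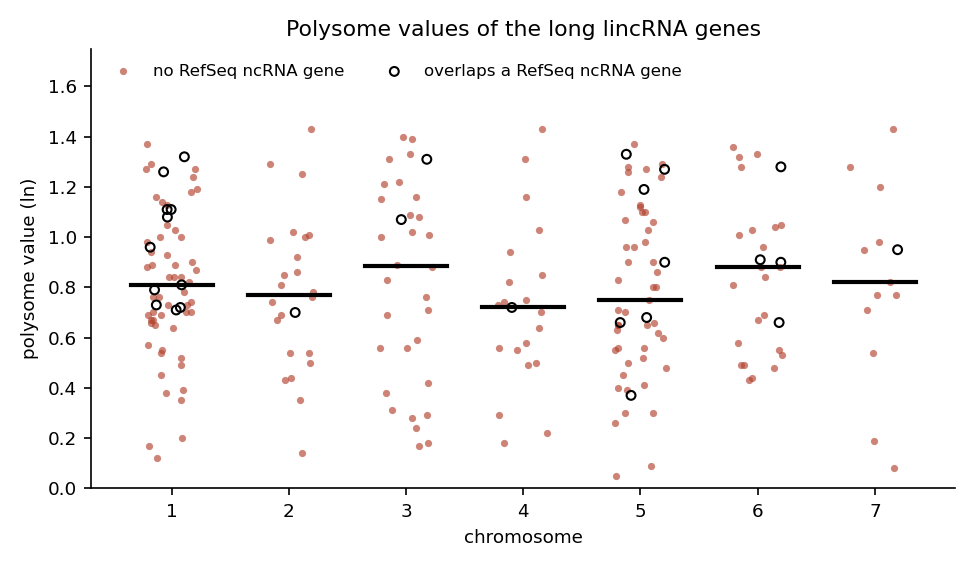
Polysome value (ln) of each of the 237 long lincRNA genes by chromosome, with a bar at the median and open circles for the 27 genes that overlap a RefSeq ncRNA gene. The medians lie between 0.72 on chromosome 4 and 0.885 on chromosome 3, and all open circles are at 0.37 or above.

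The 12 long members that overlapped a protein-coding gene go against the label of intergenic RNA by this annotation, which is not the one against which the list was made. Of these, 6 lay wholly within the span of the coding gene. For instance, chr3:495800-498350 (2551 bp, 1.01) lay within NCU05685 (6627 bp), which had 1479 sense reads in the dark library. The member chr5:308700-311350 (2651 bp) lay within NCU07784 and also overlapped an ncRNA gene, and it had the highest polysome value of the 12, 1.33. The lowest was 0.19, for chr7:3677700-3678800 within NCU06867, which had 143 sense reads in the dark. The median of the 12 was 0.73 (0.19 to 1.33), and that of the 111 other listed genes with a coding overlap was 0.41. No strand is given for lincRNA genes in the list, so that reads of the lincRNA and of the overlapping gene cannot be told apart.

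The nearest RefSeq gene of a long member was at a median distance of 749 bp (overlaps counted as 0), and that of the rest at 638 bp. Among the genes without overlap the medians were 990 bp for 200 long members and 774 bp for 690 others. In 33 of these 200 long members (16.5%) and 27.4% of the others an annotated gene was closer than the 500 bp that the authors required from coding genes. The space between the flanking genes was wider around the long members, with a median of 5.57 kb compared to 3.49 kb for the rest. The lincRNA gene took up a median of 26.9% of this space for the long members and 11.0% for the rest. Both measures include the length of the lincRNA gene, by which the members were chosen, so that part of these differences was fixed beforehand. Coding genes were on both sides in 167 of the 200. The polysome value of these 200 members had a rank correlation of 0.04 with the distance to the nearest gene, and that of 202 members had one of 0.03 with the dark sense reads of the nearest flanking gene. These correlations are across genes of 1 library each.

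Finally, the genes that flank the long lincRNA genes were examined in the light series. The light libraries ask which genes respond when dark-grown mycelia are illuminated, which in *Neurospora* is sensed by the White Collar photoreceptor complex. They hold between 9725970 and 21422091 sense reads on 9733 genes. The nearest gene on each side gave 419 distinct flanking genes, of which 364 had counts. The other 55, of which 22 are protein-coding, had no counts in the files used here. Counts were scaled by the total reads of each library, and a call needed a scaled count over 2 times that of the dark library and 10 or more reads after light.

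Of the 364 flanking genes, 30 (8.24%, exact 95% interval 5.63 to 11.6%) were called at 30, 60 or 120 min, compared to 7.94% of all 9733 genes. After 30 min it was 21 genes (5.77%, all genes 4.64%). After 60 min 20 genes were called (5.49%, all genes 5.19%), and after 120 min 16 genes (4.40%, all genes 3.76%). More than 2-fold below the dark library were 44 flanking genes (12.1%), compared to 8.08% of all genes and 12.1% of the 1008 genes that flank only the rest of the list. The shares of called genes next to long lincRNA genes were therefore close to the background in the upward direction. In the same direction, 109 of the 1008 genes that flank only the rest of the list (10.8%) were called. In the downward direction the share was above the background and equal to that next to the other listed genes. Where the upper limit of the interval also had to be below 0.5, 6.87% of the flanking genes and 4.26% of all genes were called downward. On this scaling the median log2 ratio of all genes with at least 10 reads in each library was -0.17, -0.07 and 0.04 after 30, 60 and 120 min. With summed sense reads in place of the stated totals it was -0.19 at 60 min. The 30 called genes were next to 32 long lincRNA genes, and in 2 cases both flanking genes were called. Each time point is 1 library, so that the calls compare libraries.

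The flanking gene with the largest ratio was *mus-18* (NCU08850), which encodes an endonuclease for the repair of UV damage. It had 53 reads in the dark library and 1251, 2623 and 830 reads after 30, 60 and 120 min, and its scaled ratio at 60 min was 24.6 (exact 95% interval 18.7 to 32.9, counting error only). The gene lies 1951 bp from the lincRNA gene chr5:145000-146150 (1151 bp, 0.40). NCU00999 had 792, 16723, 16239 and 2568 reads, with a ratio of 12.7 (11.8 to 13.7) at 30 min. It flanks the long member with the lowest polysome value, chr5:2644450-2645900, at a distance of 8108 bp.

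Next in order came *bek-1* (NCU00097) with 16, 239, 196 and 58 reads and a ratio of 9.0 (5.43 to 16.0) at 30 min. NCU10852 reached 8.06 (7.60 to 8.56) at 60 min, 1003 bp from chr1:5372800-5373800, and NCU02819 reached 6.40 (5.64 to 7.29) at 30 min. In these 5 genes the ratio was above 2 in all 3 light libraries, and it was lower at 120 min than at its highest. Outside the 5 largest, *frq* (NCU02265) had 254 reads in the dark and 1929, 1842 and 960 in the light, with a ratio of 4.58 (4.01 to 5.24) at 30 min.

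The lowest ratios among the flanking genes were found mostly at 30 min. NCU07846 had 499 reads in the dark library and then 170, 424 and 754 reads, with a ratio of 0.205 (0.171 to 0.245) at 30 min. *am* (NCU01195), which encodes the NADP-dependent glutamate dehydrogenase of nitrogen assimilation, had 4165, 1565, 3271 and 2583 reads, with a ratio of 0.226 (0.214 to 0.240) at 30 min. It lies 1762 bp from chr5:3197000-3199100 (2101 bp, 1.19). NCU03043 had a ratio of 0.233 at 30 min and NCU00754 one of 0.243. NCU03651 reached its lowest ratio of 0.277 (0.261 to 0.293) at 60 min, and it flanks the second longest lincRNA gene, chr5:1965600-1968800.

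**Figure D5:**
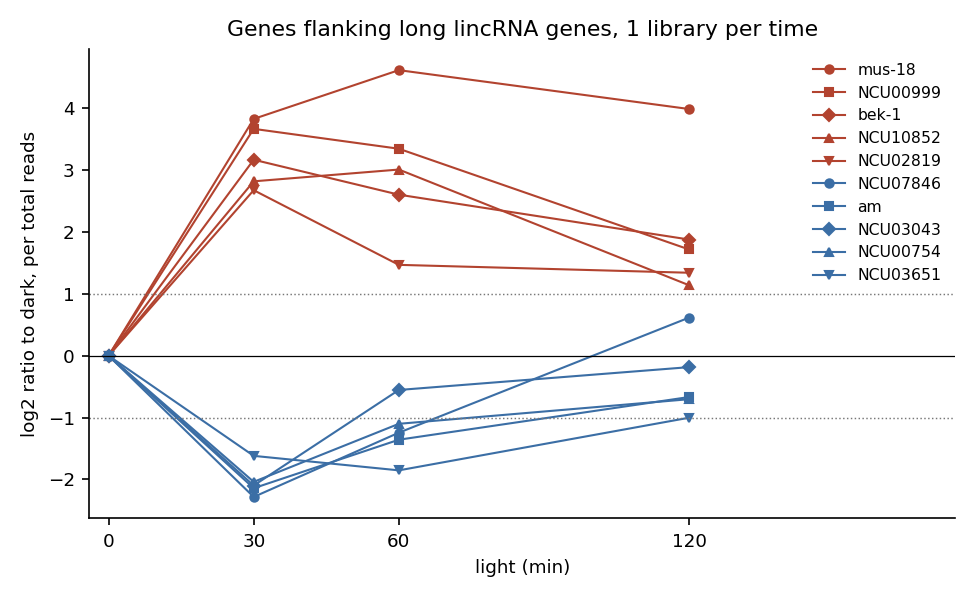
Log2 ratio of scaled sense reads to the dark library for the 5 flanking genes with the largest (red) and the 5 with the lowest (blue) ratio, against the time in light (min), 1 library per time point. Dotted lines mark 2-fold. The red genes are highest at 30 or 60 min, where *mus-18* has a ratio of 24.6, and the blue genes are lowest at 30 or 60 min.

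Around the 5 longest lincRNA genes, 10 flanking genes had counts and none was called upward, compared to 7.94% of all genes. Below 0.5 of the dark library were 2 of the 10, compared to 8.08% of all genes, namely NCU01211 with a ratio of 0.451 at 30 min and NCU03651 at each time point. The largest ratio around the longest genes was 1.68 (1.47 to 1.94) at 30 min, in NCU00759 next to chr1:7284150-7287200. Around the 5 members with the highest polysome values, 9 flanking genes had counts and 4 were above 2-fold at 30 min, compared to 4.64% of all genes. With so few genes, which surround members picked by their polysome value, this count is a description only. The 4 genes were NCU02282 with a ratio of 3.04 (2.57 to 3.63), NCU06203 with 2.67 (2.53 to 2.83), NCU06204 with 2.46 (2.05 to 2.96) and NCU08806 with 2.11 (1.85 to 2.41). NCU06203 and NCU06204 are on both sides of chr3:1898450-1899450. The lower limit of the interval was above 2 in the first 3 of these genes and below it in NCU08806. *camk-2* and *cre-1* stayed below 2-fold, with largest ratios of 0.820 (0.736 to 0.913) and 1.47 (1.40 to 1.54).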

How the data were processed

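The authors divided NC10 into 50 bp bins, merged bins with RNA polymerase II and RNA-seq signal into units, merged units under 100 bp apart, and kept units at least 500 bp from coding genes and below a polysome threshold. Reads were mapped with Bowtie2 2.1.0 (up to 3 mismatches). The deposited list holds natural log (ln) polysome values, which the authors describe as normalized by total count and unit length, and NC10 and NC12 positions. The deposited counts per gene are raw HTSeq sense reads. Lines that name no gene (12.1 to 21.3% of the reads) were left out.

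Lengths, distances and overlaps were calculated from the coordinates, and gene names from RefSeq (NC12). Counts were scaled by the total reads that the study states. Intervals are exact (95%). Those of light to dark ratios are Clopper-Pearson intervals and cover counting error only. Those of shares are Clopper-Pearson intervals over genes, which are not replicates. For medians, binomial intervals of the ranked values over genes were used in the last section. For the difference of the medians, the median of the rest was held fixed. A count of 3 reads was taken as the floor. No p-value was calculated, since each condition has 1 library. The functions were tested on simulated data.

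The members and lists were chosen with earlier results of these data known. Named are the 5 longest members, the 5 with the highest and the 5 with the lowest polysome values, the 3 most isolated, the closest pairs, members at the ends of reversed stretches, genes next to the longest and the highest members, and the 5 flanking genes with the largest and the 5 with the lowest light ratio (at least 100 reads in 1 of the 2 libraries). Members and genes in the annotation overlaps, the run on chromosome 3 and *frq* were chosen after their values were seen. Sequences and constant light libraries were not used here. Python 3.11.15, numpy 2.4.6, pandas 2.3.3 and scipy 1.17.1 were used.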

Additional observations from a re-analysis of the deposited data

How the results depend on the processing

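For 11 results, 43 alternatives were calculated, of which 11 were added after seeing the data. Only the difference of the median polysome values could change sign, and it did not do so in its 15 alternatives. The other results are shares and distances, which cannot be negative, so that their direction was not tested. Of the 43 alternatives, 30 stayed within the exact 95% interval of the value in the report. The difference of the median polysome values, 0.16, ranged from 0.09 (1500 bp or more, or without genes that overlap RefSeq genes) to 0.275 (against genes of up to 6 bins) on the ln scale, and was 0.329 reads per bin as exp(value) - 1. The other values that moved followed from the altered limit or unit. The lowest share of long genes on a chromosome was 26.9% at 750 bp and 3.57% at 1500 bp (on chromosome 4), and the highest was 39.3% (chromosome 3) and 12.7% (chromosome 6). Hence the order of the chromosomes depends on the length limit. A neighbor was present within 500 bp for 13.5% and within 2 kb for 39.2% of the long genes. The median distance to the nearest listed neighbor stayed within its interval (2900 to 6850 bp). However, its difference from the rest depends on the length limit. The medians were 5450 and 6950 bp at 750 bp or more, and 6475 and 6600 bp at 1500 bp or more. The distance to the nearest gene was 1030 bp for protein-coding genes and 1602.5 bp as the mean of both sides. The overlap with ncRNA genes was 5.91% with at least 50% coverage and 6.31% by bases. Flanking genes were called upward in 5.77 to 10.4% of cases under 5 alternatives (all genes 4.64 to 8.69%). They were called downward in 13.2% with summed sense reads (all genes 9.05%), 10.4% with median-of-ratios factors (6.46%) and 6.87% where the upper limit of the interval had to be below 0.5 (4.26%). If the values are of unscaled reads, few reads limit the polysome values. All comparisons are limited by 1 library per condition.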
